A study of Caenorhabditis elegans with 4 samples.

Results

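The body wall muscle genes described here encode the parts of the sarcomere and of its anchorage to the cell membrane. The list names 40 genes, and a member was found where the gene name of a row in the deposited gene table equalled its name, which gave 37 of 37812 rows. Of these rows, 10 belong to the thick filament and M-line, 16 to the thin filament, and 11 to the dense body and integrin attachment. unc-22 and ttn-1 appear only in rows shared with another gene name and are given apart, and unc-87 is not analysed here. Cuffdiff, the authors' test, was run on 33 of the 37 rows. RNA came from mixed early embryos of Caenorhabditis elegans wild-type strain N2, between 1 cell and 350 cells, with RNAi against sig-7 in 2 libraries and control RNAi with L4440, the empty vector, in 2 libraries. The feeding protocol in the labels (72 h on OP50 bacteria from synchronized larvae) is the same for all 4 libraries and does not say how RNAi was given. The samples were whole embryos, so fewer muscle cells and less RNA per muscle cell cannot be told apart.

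In body wall muscle of C. elegans, myosin thick filaments are held in register at the M-line and actin thin filaments at dense bodies, which correspond to the Z-disks of vertebrate muscle. Both structures are built on integrin at the cell membrane, which binds perlecan in the basement membrane and passes the force of contraction to the epidermis and cuticle. The embryo specifies these muscle cells through the transcription factors HLH-1, UNC-120 and HND-1, and assembles sarcomeres later, as it elongates. Loss of several members (the pat genes among them) paralyses and arrests the embryo during elongation.

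Most members were lower after sig-7 RNAi. Of the 33 tested members, 19 fell and 1 rose at a q under 0.05 in the authors' deposited table, which is 57.6% and 3.03% of them. Over all 10703 tested genes, 17.3% fell and 11.2% rose. Among the tested members, FPKM (fragments per kilobase of transcript, relative to the mapped fragments) was lower in sig-7 RNAi in 29 of 33, whatever the q, against 51.4% of all tested genes. It was at least 2-fold lower in 23 of 33, against 28.7% of all tested genes. The members that fell were 1.76-fold (unc-97) to 7.81-fold lower (unc-52). With 1 FPKM added to both values, the log2 ratio of sig-7 RNAi over control had a median of -0.90 in the tested members and -0.03 in the whole tested table. This scale understates the change of genes with low FPKM. At a stricter q under 0.01, 15 members fell and 0 rose, against 13.1% and 6.72% of the tested table. The members and their structural groups were chosen with earlier results known, so these counts describe the list and are no test of it.

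The deposited tables hold 1 pooled FPKM value per group, so no standard deviation or interval can be given, depth is unknown, and the spread between libraries enters only through the deposited q. Separate cultures for the 2 libraries of either group are not stated in the labels, so that spread may be technical. The target, sig-7, was at 8.72 FPKM in sig-7 RNAi and 39.8 FPKM in control, so 21.9% of the control level was left. Total FPKM over all gene rows was 1.69-fold higher in sig-7 RNAi, at 776392 FPKM against 460231 FPKM in control. The highest value of any tested gene was 112113 FPKM in sig-7 RNAi and 33284.8 FPKM in control, so single rows weigh heavily on these totals. How far such rows set the difference in totals was not tested. Scaling both groups to equal totals moves every log2 ratio by -0.754 and the tested table's median, with 1 FPKM added, to -0.55, so falls keep their direction while the 4 members with higher FPKM in sig-7 RNAi turn lower. Relative to the median of the tested table, the members' median was -0.92 under that scaling and -0.87 without it.

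**Figure D1:**
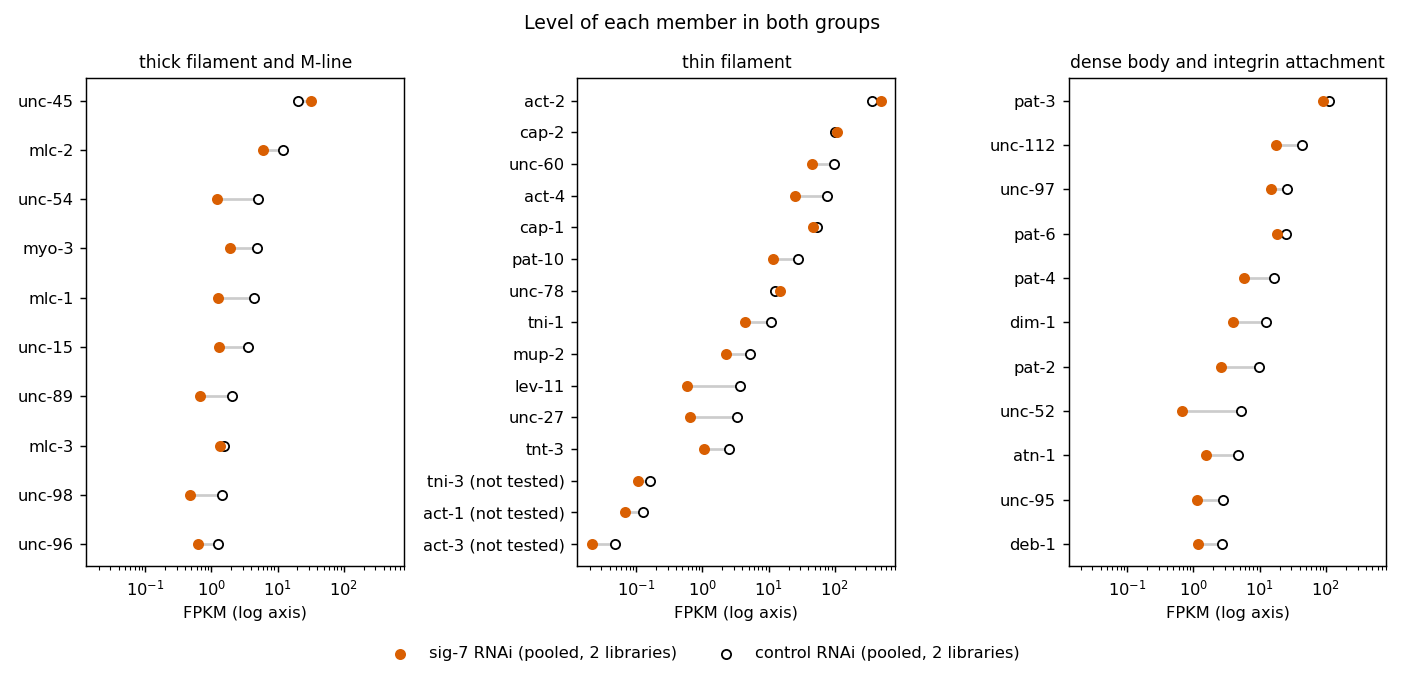
FPKM (log axis) of 36 matched members in sig-7 RNAi (filled) and control RNAi (open), 1 pooled value per group, in 3 structural groups. tnt-2, listed at 0 in control, is not drawn. Filled points lie left of open ones in most rows, and the highest member, act-2, is the other way round at 495.5 and 361.2 FPKM.

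Most thick filament and M-line genes were at a few FPKM or less in both groups, and most fell. UNC-54 and MYO-3 are the myosin heavy chains of body wall muscle. unc-54 (chromosome I, 14856170 to 14863439 on ce10 in the deposited table) had 1.24 FPKM in sig-7 RNAi and 4.99 FPKM in control, 4.02-fold lower with q = 5.77e-12 in the authors' deposited table. myo-3 was at 1.91 FPKM in sig-7 RNAi and 4.90 FPKM in control, 2.56-fold lower with q = 2.13e-06 in the authors' deposited table. The pair was almost level in control, with an unc-54 to myo-3 ratio of 0.648 in sig-7 RNAi and 1.02 in control. unc-15, which encodes the paramyosin core of the filament, was at 1.29 FPKM in sig-7 RNAi and 3.54 FPKM in control, 2.75-fold lower.

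Of the 3 myosin light chain genes, 2 fell. mlc-1 was at 1.28 FPKM in sig-7 RNAi and 4.41 FPKM in control, and its neighbour mlc-2 at 6.0 and 11.9 FPKM in the same groups. Both fell (q = 0.0111 and 0.0345 in the authors' deposited table). They encode near-identical regulatory light chains and lie side by side on the X chromosome, so reads may be split between them, but their sum was also lower, at 7.28 FPKM in sig-7 RNAi and 16.3 FPKM in control. mlc-3, the gene of the essential light chain, did not pass the test, at 1.34 FPKM in sig-7 RNAi and 1.56 FPKM in control. Its deposited locus covers 18.8% of the annotated span.

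Among the M-line genes, unc-89, which encodes the giant protein obscurin, was at 0.668 FPKM in sig-7 RNAi and 2.03 FPKM in control, 3.04-fold lower with q = 2.05e-07 in the authors' deposited table. unc-98, the gene of a zinc finger protein of M-lines, was at 0.480 FPKM in sig-7 RNAi and 1.46 FPKM in control and fell narrowly, with q = 0.0438 in the authors' deposited table. unc-96, whose product works with UNC-98, was at 0.621 FPKM in sig-7 RNAi and 1.25 FPKM in control and missed the threshold. Of the 10 tested thick filament and M-line genes, 7 fell and 1 rose, against 17.3% and 11.2% of all tested genes. Their median was -0.87 on the log2 scale with the pseudocount.

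The exception was unc-45, the gene of a chaperone that folds myosin heads. unc-45 was at 31.7 FPKM in sig-7 RNAi and 20.5 FPKM in control, 1.54-fold higher with q = 0.0195 in the authors' deposited table. It was the highest of the thick filament and M-line genes in both groups. With the groups scaled to equal totals its log2 ratio turned from 0.63 to -0.13, so its direction depends on the scaling, and it does not pass at q under 0.01.

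The giant proteins twitchin and the titin-like TTN-1 brace the thick filament, and their genes share deposited rows with another gene name. The row of unc-22 (twitchin) and ZK617.7 was at 0.196 FPKM in sig-7 RNAi and 0.507 FPKM in control, 2.59-fold lower with q = 0.000717 in the authors' deposited table. The row of ttn-1 and H05O09.3 was at 0.810 FPKM in sig-7 RNAi and 2.34 FPKM in control, 2.88-fold lower. The isoform table separates the names: the 1 ttn-1 isoform that was tested was at 0.177 FPKM in sig-7 RNAi and 0.567 FPKM in control, 3.20-fold lower with q = 2.03e-06 in the authors' deposited table. None of the 8 isoforms named unc-22 was tested. Together they account, to rounding, for all FPKM of the shared row in both groups, so the row's values are those of unc-22. The call itself was made on the shared row only.

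**Figure D2:**
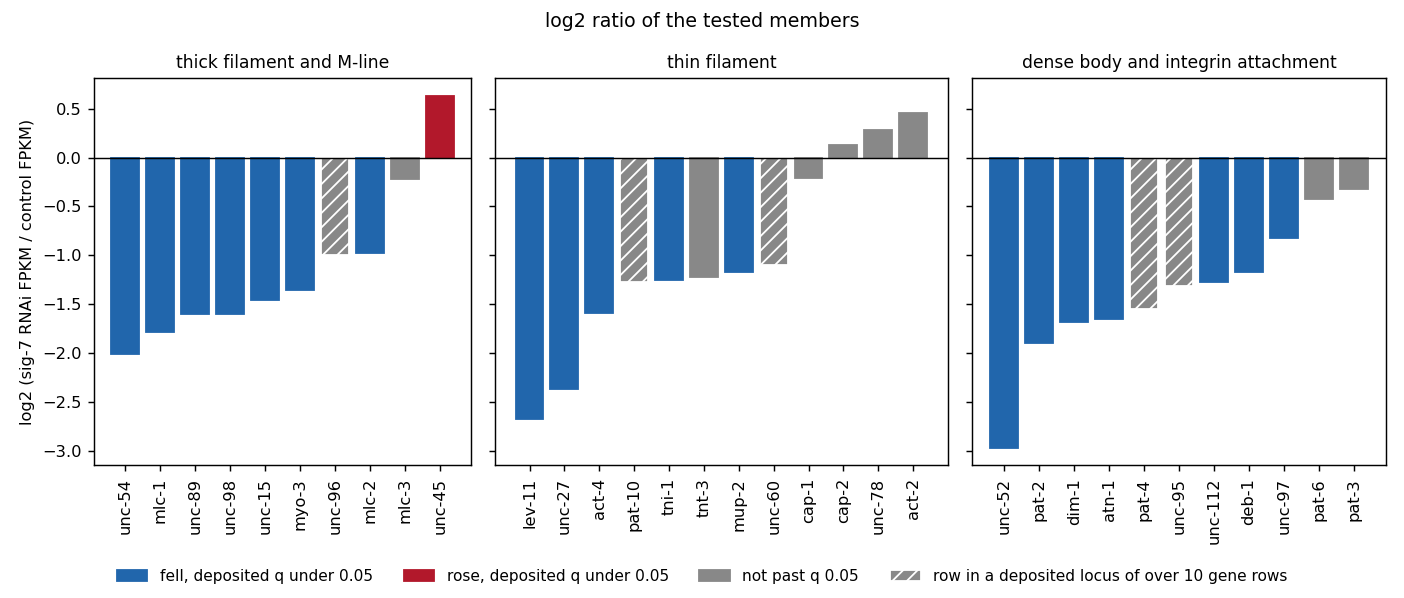
log2 of sig-7 RNAi over control FPKM for the 33 tested members in 3 structural groups, sorted within each group. Colour gives the call at a deposited q under 0.05 and hatching marks the 5 rows whose deposited locus holds over 10 gene rows. unc-52 has the lowest ratio at -2.97 and unc-45 the highest at 0.63, and none of the 5 hatched rows passed the test.

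The thin filament held the widest range of levels. Tropomyosin and the troponin complex, which lie along actin and make contraction depend on calcium, had lower FPKM in sig-7 RNAi in each of their 6 tested genes. lev-11, the tropomyosin gene, was at 0.586 FPKM in sig-7 RNAi and 3.75 FPKM in control, 6.41-fold lower with q = 0.0071 in the authors' deposited table. unc-27, a troponin I gene, was at 0.646 FPKM in sig-7 RNAi and 3.33 FPKM in control, 5.16-fold lower with q = 0.000912 in the authors' deposited table. These were the largest falls in the thin filament, though the deposited locus of lev-11 covers 17.2% of its annotated span, so its value may stand for part of the gene.

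The other troponin genes lay closer to a 2-fold difference. tni-1, a second troponin I gene, was at 4.48 FPKM in sig-7 RNAi and 10.7 FPKM in control, 2.38-fold lower. mup-2, the troponin T gene of body wall muscle, was at 2.29 FPKM in sig-7 RNAi and 5.17 FPKM in control, 2.25-fold lower. Both fell (q = 0.00221 and 0.00585 in the authors' deposited table). tnt-3, another troponin T gene, was at 1.07 FPKM in sig-7 RNAi and 2.50 FPKM in control and missed the threshold with q = 0.0604 in the authors' deposited table. pat-10, the troponin C gene, did not pass either, at 11.6 FPKM in sig-7 RNAi and 28.1 FPKM in control, the highest level among the troponins. tni-3 and tnt-2 were not tested: tni-3 was at 0.107 FPKM in sig-7 RNAi and 0.164 FPKM in control, and tnt-2 at 0.0257 FPKM in sig-7 RNAi and listed at 0 in control.

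Of the 4 actin genes, 1 fell. act-4 was at 25.2 FPKM in sig-7 RNAi and 75.8 FPKM in control, 3.01-fold lower with q = 3.11e-10 in the authors' deposited table. act-2 was the most abundant member of the whole list, at 495.5 FPKM in sig-7 RNAi and 361.2 FPKM in control, and did not pass the test (q = 0.0777 in the authors' deposited table). act-1 and act-3, neighbours of act-2 on chromosome V, were at 0.0688 and 0.0216 FPKM in sig-7 RNAi and at 0.128 and 0.0476 FPKM in control, and were not tested. act-4 thus made up 4.84% of the FPKM of the 4 genes in sig-7 RNAi and 17.3% in control, a share that a common scaling does not change. Actin genes are near-identical and the authors' handling of reads that match several of them is not known here, so the division between act-1, act-2 and act-3 in particular is uncertain, and the deposited locus of act-4 covers 29.3% of its annotated span.

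Genes that cap, sever or recycle actin filaments did not pass the test. cap-1 and cap-2, the subunits of capping protein, were at 46.2 and 108.1 FPKM in sig-7 RNAi and at 53.5 and 98.8 FPKM in control. unc-78, which encodes an actin-interacting protein that assists cofilin, was at 15.1 FPKM in sig-7 RNAi and 12.4 FPKM in control. unc-60, the gene of the ADF/cofilin proteins, was at 44.9 FPKM in sig-7 RNAi and 96.1 FPKM in control, 2.14-fold lower without passing the test. The gene makes a muscle form and a non-muscle form of cofilin, and the isoform table gives 1 row under its name, so the forms could not be told apart. Of the 12 tested thin filament genes, 5 fell and 0 rose, against 17.3% and 11.2% of all tested genes. Their median was -0.99 on the log2 scale with the pseudocount.

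All 11 dense body and attachment genes were tested, and all had lower FPKM in sig-7 RNAi. Of these, 7 fell and 0 rose, against 17.3% and 11.2% of all tested genes. Their median was -1.19 on the log2 scale with the pseudocount. unc-52, the perlecan gene, was at 0.664 FPKM in sig-7 RNAi and 5.19 FPKM in control, 7.81-fold lower with q listed as 0 in the authors' deposited table (the smallest q printed above 0 there is 1.37e-14). This was the lowest ratio of any member, at rank 973 from the bottom among the 10703 tested genes. The gene row gives the locus of unc-52 as chromosome II, 14647404 to 14650962, but its value equals that of another TSS group (isoforms that share a transcription start site), at 14661571 to 14666777. The TSS group at the printed locus was at 0.0572 FPKM in sig-7 RNAi and 0.258 FPKM in control and was not tested. The value of unc-52 therefore belongs to a stretch within a gene with an annotated span of 37136 bp.

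Integrin is a pair of an alpha and a beta chain, of which the alpha gene passed the test and the beta gene did not; the difference between them was not tested. pat-2, the alpha integrin gene of muscle, was at 2.58 FPKM in sig-7 RNAi and 9.63 FPKM in control, 3.73-fold lower with q = 7.37e-12 in the authors' deposited table. pat-3, the only beta integrin gene of C. elegans, was at 88.9 FPKM in sig-7 RNAi and 110.8 FPKM in control and did not pass the test (q = 0.261 in the authors' deposited table). pat-3 was 34.5 times the level of pat-2 in sig-7 RNAi and 11.5 times in control. PAT-3 also pairs with INA-1, the alpha integrin of many other tissues. ina-1, named here after its value was seen, was at 18 FPKM in sig-7 RNAi and 35.0 FPKM in control, 1.95-fold lower with q = 6.22e-05 in the authors' deposited table.

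The proteins that bind the integrin tail inside the cell form a complex of kindlin (UNC-112), integrin-linked kinase (PAT-4), parvin (PAT-6) and PINCH (UNC-97). unc-112 was at 17.9 FPKM in sig-7 RNAi and 43.2 FPKM in control, 2.41-fold lower with q = 1.51e-07 in the authors' deposited table. unc-97 was at 14.7 FPKM in sig-7 RNAi and 26 FPKM in control, the smallest fall of any member that passed. pat-6 was at 18.4 FPKM in sig-7 RNAi and 24.6 FPKM in control and did not pass the test. pat-4 was at 5.72 FPKM in sig-7 RNAi and 16.7 FPKM in control, 2.92-fold lower, and did not pass either. Differences in size between these 4 genes were not tested.

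Of 4 genes of other dense body proteins, 3 fell. atn-1, the alpha-actinin gene, was at 1.53 FPKM in sig-7 RNAi and 4.79 FPKM in control, 3.13-fold lower with q = 5.97e-06 in the authors' deposited table. deb-1, the vinculin gene, was at 1.19 FPKM in sig-7 RNAi and 2.68 FPKM in control, 2.26-fold lower with q = 0.0316 in the authors' deposited table. dim-1, which encodes an immunoglobulin-domain protein that helps keep the filament lattice in place, was at 3.95 FPKM in sig-7 RNAi and 12.6 FPKM in control, 3.20-fold lower. unc-95, the gene of a LIM-domain protein of dense bodies and M-lines, was at 1.13 FPKM in sig-7 RNAi and 2.80 FPKM in control and did not pass the test. The deposited loci of deb-1 and dim-1 cover 24.4% and 21.4% of their annotated spans. In all, 9 of the 37 matched members have a deposited locus under 50% of the annotated span (unc-15, mlc-1, mlc-3, act-3, act-4, lev-11, unc-52, deb-1 and dim-1).

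Of the 13 tested members that did not pass, 5 (unc-60, unc-95, unc-96, pat-4 and pat-10) lie in deposited loci that merge many gene rows, and the calls there differ from those elsewhere. These loci hold 56 (unc-96) to 281 (unc-95) gene rows and run over 268.6 kb to 1423 kb. All 5 members were at least 2.00-fold lower in sig-7 RNAi. The locus of pat-10 had 0 called rows among 107 tested, that of unc-95 had 0 among 151 and that of unc-60 had 0 among 33, while those of pat-4 and unc-96 had 1 each among 49 and 19. Over the whole table, 2.01% of tested genes in loci of over 10 gene rows were called in either direction, against 35.5% of those in smaller loci. Among genes at least 2-fold lower, 6.08% were called in the large loci and 61.8% in the smaller ones. A missed threshold in these 5 members therefore does not show that they held their level. Falls were called in 0 of these 5, against 1.83% of tested genes in large loci. Among the 28 members in smaller loci, a division made after the values were seen, 19 fell, against 21.4% of tested genes there.

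Of the other 8 members that did not pass, 5 (act-2, pat-3, cap-2, cap-1 and pat-6) were at 20 FPKM or more in control. Of the 9 members at 25 FPKM or more in control, 3 fell (act-4, unc-112 and unc-97), against 13.2% of all tested genes at that level. Of the 10 members at 5 to 25 FPKM, 6 fell, against 19.4% of all such genes, and of the 14 tested members under 5 FPKM, 10 fell, against 18.6%. Across the 33 members the log2 ratio went with the mean log2 level (Pearson's r = 0.63, Spearman's rho = 0.54), and the same held across 10098 tested genes above 0 in both groups (r = 0.46, rho = 0.47). Both quantities come from the same pair of pooled values and genes are not independent, so these are descriptions.

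**Figure D3:**
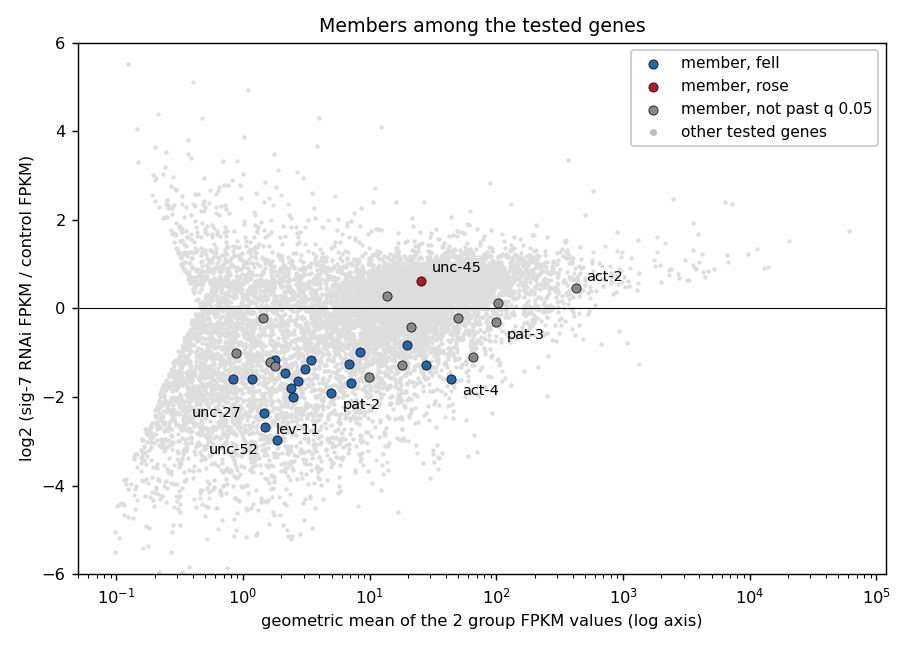
log2 of sig-7 RNAi over control FPKM against the geometric mean of the group values (log axis) for 10098 tested genes above 0 in both groups, of which 8 lie beyond the drawn range, with the 33 tested members marked by call. The members that fell lie well inside the cloud of tested genes, mostly at low levels, and act-2 and pat-3 lie at the high end near 0.

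Members lie on all 6 chromosomes, with 13 of the 37 on the X chromosome. Of the 12 tested X-linked members 9 fell, against 34.4% of all tested X-linked genes, and of the 21 on other chromosomes 10 fell and 1 rose, against 14.5% falling among all tested genes there.

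The isoform table has 57 rows under the names of 39 members, of which 35 were tested. Among these 21 fell and 1 rose, against 16.4% and 10.7% of all tested isoforms. Of 33 tested TSS groups named for 1 member alone, 19 fell, against 16.9% of all tested TSS groups. Among 33 of the 39 members the table has a single isoform, so a change in isoform use could be seen for few. The clearest case was unc-89, whose TSS group holds isoforms that went different ways. Its main isoform in control was at 0.241 FPKM in sig-7 RNAi and 1.46 FPKM in control, 6.05-fold lower with q = 4.59e-11 in the authors' deposited table. A second was listed at 0 in sig-7 RNAi and was at 0.539 FPKM in control (q = 0.00194 in the authors' deposited table). Another, not tested, was at 0.372 FPKM in sig-7 RNAi and 0.0260 FPKM in control and held most of the unc-89 FPKM in sig-7 RNAi. Isoform values at such low levels are estimates from shared exons, and the shift between isoforms was not tested. atn-1 and unc-52 each had 1 tested isoform, which fell.

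Genes that work beside the members were taken from lists written down with the same earlier results known. Of 13 tested genes of other dense body and M-line proteins, 9 fell and 0 rose, against 17.3% and 11.2% of all tested genes, with a median of -1.06 on the log2 scale with the pseudocount. The largest falls were in genes of LIM-domain proteins and of a kinase. zyx-1 (zyxin) was at 0.208 FPKM in sig-7 RNAi and 1.90 FPKM in control, 9.17-fold lower. lim-8 and lim-9 were 6.60-fold and 6.44-fold lower, and unc-82, the gene of a kinase that organizes thick filaments, was 5.58-fold lower. These levels were low: lim-8, lim-9 and unc-82 were at 0.266, 0.183 and 0.368 FPKM in sig-7 RNAi. In control they were at 1.75, 1.18 and 2.05 FPKM, so the size of these ratios is uncertain. tln-1, the talin gene, listed under its sequence name Y71G12B.11 and named here after its value was seen, was at 8.70 FPKM in sig-7 RNAi and 40.9 FPKM in control, with q listed as 0 in the authors' deposited table.

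Most genes of the matrix and of the epidermal side of the attachment fell. Of 16 tested, 12 fell and 0 rose, against the same shares of all tested genes, with a median of -1.62. epi-1, a laminin alpha gene, was at 12.1 FPKM in sig-7 RNAi and 115.2 FPKM in control, 9.55-fold lower with q listed as 0 in the authors' deposited table. nid-1 (nidogen) was 5.69-fold lower, and mup-4 and mua-3, genes of transmembrane proteins of the epidermal attachment, were 7.01-fold and 6.10-fold lower. Whether these lists and the members differ in size was not tested.

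Genes for excitation and calcium release in muscle were mostly at low levels. Of 12 tested, 3 fell and 0 rose, with a median of -0.50, a share that is near the 17.3% of all tested genes that fell. sca-1, twk-18 and unc-63 lie in deposited loci of over 10 gene rows, where 1.83% of tested genes fell. That share therefore does not show that the other genes of the list held their level. unc-68, the ryanodine receptor gene, was at 0.829 FPKM in sig-7 RNAi and 3.52 FPKM in control, 4.25-fold lower with q = 7.54e-14 in the authors' deposited table. slo-1, a potassium channel gene, and egl-19, the gene of the voltage-gated calcium channel of muscle, were 3.39-fold and 1.96-fold lower. Among 12 tested genes listed as pharyngeal and non-muscle paralogues, 1 fell and 0 rose, with a median of -0.55. The gene that fell was nmy-1, a non-muscle myosin gene active in the epidermis, at 14.4 FPKM in sig-7 RNAi and 35.3 FPKM in control. The list also holds fhod-1, a formin gene that acts in body wall muscle, so it is not free of body wall muscle genes. act-5, tnt-4, tmd-2, fhod-1, cyk-1 and nmy-2 lie in deposited loci of over 10 gene rows, where 1.83% of tested genes fell. Of these, act-5, fhod-1 and tmd-2 were 7.83-fold, 2.89-fold and 2.69-fold lower. tnt-4 was at 0.0325 FPKM in sig-7 RNAi and 0.649 FPKM in control. The log2 ratios of cyk-1 and nmy-2 were -0.47 and 0.32. The small share that fell therefore does not show that this list held its level.

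The transcription factors that specify body wall muscle are measured apart from the members, and of the 3 genes 1 rose and 0 fell. hnd-1 was at 60.7 FPKM in sig-7 RNAi and 35.2 FPKM in control and rose (q = 0.00965 in the authors' deposited table). hlh-1, the MyoD homologue, was at 22.4 FPKM in sig-7 RNAi and 14.9 FPKM in control and did not pass the test (q = 0.0885 in the authors' deposited table). unc-120, the SRF homologue, was at 14.8 FPKM in sig-7 RNAi and 20.6 FPKM in control and did not pass either. With the groups scaled to equal totals the log2 ratios were 0.03 for hnd-1, -0.16 for hlh-1 and -1.23 for unc-120. RNA of all 3 was thus present in both groups.

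**Figure D4:**
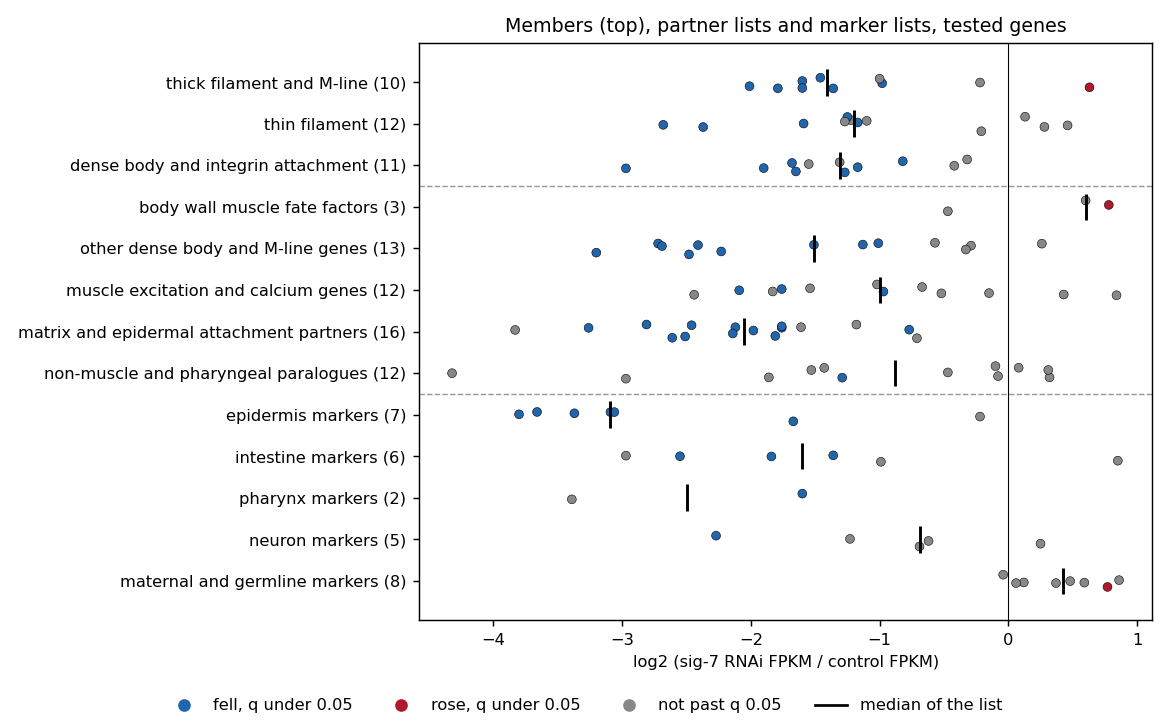
log2 of sig-7 RNAi over control FPKM for the tested genes of the 3 member groups (top), of partner lists (middle) and of marker lists (bottom), with the number of genes in brackets and a bar at each list's median. The muscle fate factors and the maternal and germline markers lie around or above 0 as deposited, and mostly below 0 at equal totals, which move every ratio by -0.754, while most other lists lie mainly below it.

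Most epidermis markers and some intestine markers fell along with the members, and their part in the result was not tested. Of 7 tested epidermis markers 6 fell (elt-1, elt-3, noah-1, noah-2, dpy-7 and lrp-1), with a summed level of 69.9 FPKM in sig-7 RNAi and 323.1 FPKM in control. noah-1 and noah-2 made up most of the control sum, at 110.2 and 98.8 FPKM. lin-26 did not pass the test, at 30.5 FPKM in sig-7 RNAi and 35.5 FPKM in control. Of 6 tested intestine markers 3 fell (end-1, elt-2 and ifb-2), with sums of 18.6 and 41.4 FPKM in the same groups, while end-3 was at 5.63 FPKM in sig-7 RNAi and 3.13 FPKM in control and did not pass the test. Of 5 tested neuron markers 1 fell (unc-86), close to the 17.3% of all tested genes, with sums of 90.9 FPKM in sig-7 RNAi and 95.1 FPKM in control. Most of both sums came from snb-1, at 68.6 FPKM in sig-7 RNAi and 57.6 FPKM in control. The other tested neuron markers (unc-119, rab-3, unc-86 and egl-3) had lower FPKM in sig-7 RNAi. unc-119 lies in a deposited locus of 286 gene rows. Of the 5 pharynx markers 2 were tested and pha-4 fell. The other, ceh-22, was at 0.102 FPKM in sig-7 RNAi and 1.07 FPKM in control and did not pass (q = 0.0679 in the authors' deposited table). The untested myo-1, myo-2 and tnc-2, which define pharyngeal muscle, were at 0.0657 to 0.0761 FPKM in sig-7 RNAi and 0.175 to 0.231 FPKM in control. Of 8 tested maternal and germline markers 0 fell and 1 rose (nos-2), against 17.3% and 11.2% of all tested genes. Their summed level was 876.6 FPKM in sig-7 RNAi and 652.1 FPKM in control, of which pos-1 made up 411.9 and 274.2 FPKM. pos-1 and pie-1 lie in deposited loci of 288 and 34 gene rows. The log2 ratio of nos-2 was 0.77 as deposited and 0.01 with the groups scaled to equal totals. These samples are mixtures of stages, and a difference in the stages harvested was not tested.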

How the data were processed

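The authors deposited 3 Cuffdiff tables (genes, isoforms, TSS groups). Their rows hold, per the file headers, 1 pooled FPKM value for each group with a p-value and q-value for sig-7 RNAi against control. Per the submitters' processing notes, the tools included TopHat2, Cufflinks 2.1.1 and Cuffdiff 2.0.2, on build ce10. Which annotation was used, and whether strand was, is not known here. Per the labels' protocols, total RNA was depleted of ribosomal RNA and made into stranded libraries, and groups were read from the sample titles.

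With 1 value per group, no test was run here: a call is a deposited q under 0.05. Ratios were computed in Python 3.11.15 from the deposited FPKM values, with a pseudocount of 1 FPKM for medians, and counting was tested on simulated data. Deposited loci start at base 0 and are given from base 1. Annotated spans came from the WBcel235 annotation, matched by gene name for 37 members; no WBcel235 coordinate is given. Of 3 listed partners (alp-1, unc-23 and unc-93) no row was used, and 3 were matched by sequence name. Promoter motifs were not analysed here.

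The members, groups, partner lists and tests were chosen with earlier results of these data known. All 40 members are named; from each partner list, up to 4 called genes with the largest ratio were named, and other exceptions are marked. Alternatives were a q under 0.01, a floor of 1 FPKM, a pseudocount of 0.1 FPKM, equal totals, the other tables, and subsets of members.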

Additional observations from a re-analysis of the deposited data

How the results depend on the processing

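As reported, 19 of 33 tested members fell. At a q under 0.01, 15 of 33 fell, and with a floor of 1 FPKM 18 of 31 did. Among isoforms 21 of 35 fell, and among TSS groups 19 of 33. With near-identical copies left out 16 of 29 fell, with shared rows included 21 of 35, and with large loci left out 19 of 28. With X-linked members left out, 10 of 21 tested members fell. At a q under 0.01, 0 members rose, against 1 as reported, and 1 rose by every other count listed here from the gene and isoform tables. The median log2 ratio of the members (-0.90) was -1.24 with a pseudocount of 0.1 FPKM, -1.47 at equal totals, -0.99 with the floor, -0.99 without X-linked members and -0.89 without large loci. For the thick filament and M-line (-0.87), the same settings gave -1.35, -1.24, -0.93, -0.92 and -0.88, and -0.80 without near-identical copies. For the thin filament (-0.99), the median was -1.14 with the smaller pseudocount, -1.52 at equal totals, -0.64 without X-linked members and -0.83 without large loci. For the dense body and attachment genes (-1.19), it was -1.26 with the smaller pseudocount and -1.60 at equal totals. Equal totals move all ratios down by construction, and the subsets hold fewer members; the cause of the other shifts was not tested. No paired analysis was possible because the deposited tables hold 1 pooled value per group, and for the same reason no library could be left out in turn. Leaving out large loci and including shared rows were chosen after the data were seen. Depth is unknown, so how far it limits members under 1 FPKM cannot be given.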

Other observations

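Several partner genes with large ratios lie, like 5 of the members, in deposited loci of over 10 gene rows and did not pass the test; they are named here after their values were seen. let-805, which encodes the epidermal receptor of the muscle attachment, was at 0.392 FPKM in sig-7 RNAi and 5.57 FPKM in control, 14.2-fold lower with q = 0.349 in the authors' deposited table, in a locus of 65 gene rows. vab-19, the gene of an ankyrin-repeat protein of the same attachment, was at 1.98 FPKM in sig-7 RNAi and 6.03 FPKM in control, in a locus of 548 gene rows. act-5, the actin gene of intestinal microvilli, was at 0.738 FPKM in sig-7 RNAi and 5.77 FPKM in control, 7.83-fold lower without passing the test, in a locus of 172 gene rows. fhod-1, a formin gene that acts in body wall muscle, was at 0.974 FPKM in sig-7 RNAi and 2.82 FPKM in control and shares the large locus of pat-10. lam-1, the laminin beta gene, lies in a locus of 14 gene rows and did fall, at 39.1 FPKM in sig-7 RNAi and 132.8 FPKM in control.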
